A study of Mus musculus with 6 samples.

Results

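The genes described here regulate plasmin formation and the start of coagulation at the surface of vascular cells. They are the plasminogen activators Plat and Plau, the receptor Plaur, the protease inhibitor Serpine2, thrombomodulin (Thbd), the protein C receptor Procr, tissue factor (F3) and its inhibitors Tfpi and Tfpi2. All 9 genes, chosen by symbol, were found among the 54532 genes of the table, 1 row each. Their RNA was quantified by bulk sequencing of primary endothelial cultures from mouse aorta (MAEC) with the genotype Oct4 KO, an endothelial-cell-specific knockout of the pluripotency factor OCT4. The libraries were 3 from female and 3 from male mice, all untreated and all grown with serum, heparin and endothelial growth factors. The driver of the deletion, the age of the mice and whether cells were pooled are not given in the sources used here. Wild-type cells were not analysed here, so each comparison is female KO over male KO and none shows an effect of the deletion. Libraries of the same sex may share a culture or an animal. Whether the differences below follow sex or the cultures was therefore not tested.

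Plasminogen is cleaved to plasmin, the protease that dissolves fibrin, by tissue-type activator (Plat), mostly on fibrin, and by urokinase (Plau), which acts while held at the cell surface by its receptor (Plaur). Serpins such as the product of Serpine2 trap these activators. Coagulation starts when tissue factor binds factor VIIa, a step that tissue factor pathway inhibitor restrains. Thrombomodulin turns thrombin into an activator of protein C, which the receptor encoded by Procr presents, and the pair are classical anticoagulant proteins of endothelium.

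Upstream sequences of the genes were available for 6 of the 9 (Plaur, Serpine2, Procr, F3, Tfpi and Tfpi2) in RefSeq windows of build GRCm38.p6, each from 250 bases before to 50 bases after a transcription start. There was no entry for Plat, Plau or Thbd. The window of Serpine2, the gene lowest in female relative to male cells, is shown with those of Procr, which was higher in female cells, and of Plaur and F3, which were not called different. Capitals mark every match, on either strand, to TATAAA (the TATA box), to GGGCGG (the core of a GC box), to TGANTCA, to TGACGTCA (a cyclic AMP response element) or to CACGTG (an E-box), 5′ to 3′ on the strand of the gene. In TGANTCA the N stands for any base, and AP-1 factors bind its forms TGACTCA and TGAGTCA.
Serpine2 (chr1:79858616-79858915, minus strand): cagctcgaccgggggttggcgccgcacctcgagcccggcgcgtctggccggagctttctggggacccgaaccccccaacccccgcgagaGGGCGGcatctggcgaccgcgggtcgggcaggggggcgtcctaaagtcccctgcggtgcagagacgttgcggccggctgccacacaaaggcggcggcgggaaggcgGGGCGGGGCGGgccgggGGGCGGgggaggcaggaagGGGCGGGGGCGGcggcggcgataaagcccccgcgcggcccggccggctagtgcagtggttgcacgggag
Procr (chr2:155750967-155751266, plus strand): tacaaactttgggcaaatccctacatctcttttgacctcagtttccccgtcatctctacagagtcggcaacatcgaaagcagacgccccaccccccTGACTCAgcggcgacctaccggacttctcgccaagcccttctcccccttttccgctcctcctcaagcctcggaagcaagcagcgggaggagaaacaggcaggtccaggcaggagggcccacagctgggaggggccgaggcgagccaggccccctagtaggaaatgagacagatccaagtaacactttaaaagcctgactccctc
Plaur (chr7:24462233-24462532, plus strand): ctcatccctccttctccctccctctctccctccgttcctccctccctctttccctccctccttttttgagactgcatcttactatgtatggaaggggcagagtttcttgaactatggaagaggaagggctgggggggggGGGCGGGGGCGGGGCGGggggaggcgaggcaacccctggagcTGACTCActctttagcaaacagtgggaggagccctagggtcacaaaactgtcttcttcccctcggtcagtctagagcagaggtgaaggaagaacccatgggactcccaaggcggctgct
F3 (chr3:121723287-121723586, plus strand): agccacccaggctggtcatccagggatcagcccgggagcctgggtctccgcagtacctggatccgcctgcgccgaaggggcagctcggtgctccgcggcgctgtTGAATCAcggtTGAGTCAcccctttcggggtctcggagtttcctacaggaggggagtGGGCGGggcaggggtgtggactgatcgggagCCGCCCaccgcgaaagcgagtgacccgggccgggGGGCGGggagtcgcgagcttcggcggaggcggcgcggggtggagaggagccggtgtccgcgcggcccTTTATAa
The Serpine2 window held 6 GGGCGG matches, some overlapping each other, no match to the other motifs, and a GC content of 77.7%. GGGCGG was present in 35.7% of the 32851 RefSeq windows of this length. It was also in the windows of Plaur and F3, in those of Tfpi and in 1 of Tfpi2, but not in that of Procr. Windows of genes called higher, called lower and not called thus held it. The GC content was 58.3% for Procr, 59.3% for Plaur and 70.3% for F3. F3 also held a TATAAA match, on the opposite strand. The Procr window held 1 TGANTCA match, 154 bases before the start. Plaur held 1 at 69 bases before the start and F3 held 2, at 146 and 135 bases before it. The Procr and Plaur matches read TGACTCA, and those of F3 read TGAATCA and TGAGTCA in that order. TGANTCA, with any base at N, was present in 7.81% of all windows. Of the windows not shown, 1 of the 3 of Tfpi2, which was also higher in female cells, held a match 77 bases before its start. That match read TGAATCA, which is not among the AP-1 forms given above. The windows of Tfpi, which like Serpine2 was lower, held no TGANTCA match. A match is only a run of letters, not a bound site.

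Depth was 20404758 to 21483163 counts per female library and 19299742 to 23064738 counts per male library. CPM below is the scaled count over the effective library size (total count times a TMM factor), and TPM is the length-scaled level used to compare genes with each other. Pou5f1, the gene of OCT4, had 0 counts in all 6 libraries, which does not check the genotype without wild-type cells. Of 12 endothelial marker genes 10 were under 1 CPM in every library, with Cldn5, Emcn and Sox17 at 0 throughout. Their summed level was 4.76 to 7.34 CPM in female and 4.99 to 5.68 CPM in male libraries. Cdh5, which encodes VE-cadherin, had 0, 4 and 0 counts in female and 2, 0 and 3 counts in male libraries. The labelled endothelial identity was therefore not borne out by its defining markers. All 10 fibroblast markers were read, at a summed 15358 to 17283 CPM in female and 7225 to 7869 CPM in male libraries, with 7 higher, 2 lower and 1 not called in female cells. The 6 pericyte markers summed to 442 to 460 CPM in female and 720 to 761 CPM in male libraries, 4 of them higher and 2 lower in female cells. Rgs5 (0.756 ± 0.456 CPM in female and 255.9 ± 10.1 CPM in male cells) and Pdgfrb were lower. Cspg4 (108.5 ± 12.7 and 3.19 ± 0.233 CPM), Kcnj8, Abcc9 and Notch3 were higher. The 8 smooth muscle markers summed to 82.8 to 84.6 CPM in female and 165 to 181 CPM in male libraries, 1 higher and 4 lower in female cells. The part of these marker differences in the results below was not tested, and in bulk RNA fewer cells of a type cannot be told apart from less RNA per cell. The 8 macrophage and leukocyte markers summed to 69.7 to 86.2 CPM in female and 77.3 to 93.8 CPM in male libraries, with Ptprc and Adgre1 at 0 throughout. Cd14 (63.9 ± 10.2 CPM in female and 26.5 ± 2.47 CPM in male cells) and Cd68 were higher in female cells, Lyz2 (9.89 ± 1.13 and 54.6 ± 6.03 CPM) was lower and Csf1r was not called.

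Among the 9 genes, 7 were called different between female and male KO cells at an adjusted p under 0.05, 4 higher (Plau, Thbd, Procr and Tfpi2) and 3 lower (Plat, Serpine2 and Tfpi) in female cells, while Plaur and F3 were not called. The test was edgeR's quasi-likelihood test with Benjamini-Hochberg adjustment over all 14814 genes tested, of which 60.7% were called, 30.9% as higher and 29.8% as lower. With so many genes called, 7 of 9 is not a result about these genes as a group. In size, 5 of the 9 were called and differed at least 2-fold, as did 23.6% of all tested genes. The median absolute log2 fold change was 1.13 against 0.53 over all tested genes. The 5 include Tfpi2, whose call rests on few reads. The 9 genes were chosen with earlier results of these data known, so these sizes are likewise not a result about them as a group. The changes ran in both directions, with a median of 0.03 against -0.01 for all. Female and male libraries did not overlap in CPM for the 7 called genes, nor for 67.1% of all tested genes. All 9 passed the low-count filter, and Tfpi2 reached 10 counts in every female library but not in every male library.

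**Figure D1:**
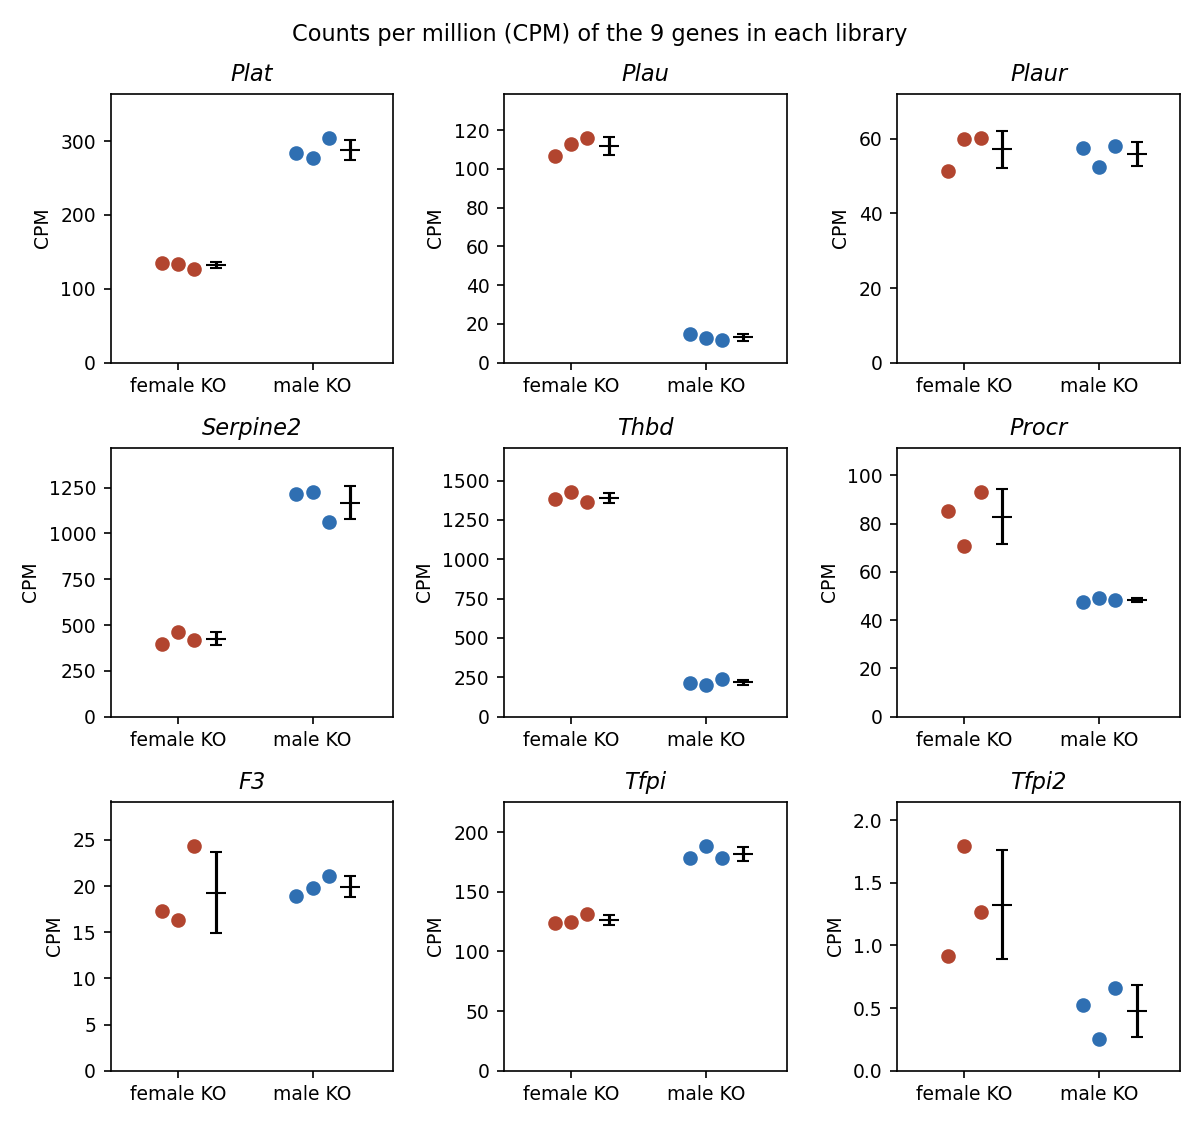
CPM (linear axes from 0) of each gene in the 3 female KO libraries (red, left) and the 3 male KO libraries (blue, right), with the mean and SD as black marks. The libraries of the sexes separate for 7 genes and overlap for Plaur and F3.

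Urokinase and tissue-type activator changed in opposite directions. Plau (ENSMUSG00000021822, mm10 chromosome 14, 20836660 to 20843385, plus strand, 11 exons in its coding transcript) stood at 106.8, 113.1 and 115.8 CPM in female libraries and at 15.0, 12.7 and 11.6 CPM in male libraries. Every female library was far above every male library, an 8.54-fold difference (log2 fold change 3.09 ± 0.11 SE, edgeR adjusted p = 1.52e-13). Only 5.47% of tested genes changed as much in either direction. Plat (chromosome 8, 22757727 to 22782844, plus strand, 14 exons) was at 135.2, 133.3 and 127.2 CPM in female libraries and 283.8, 276.9 and 303.7 CPM in male libraries. Here the female libraries all lay below the male ones, 2.18-fold lower (log2 -1.13 ± 0.08, edgeR adjusted p = 1.45e-09).

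The opposite differences of the activators were plain on the length-scaled level. Plau was 2.08, 2.24 and 2.40 times the TPM of Plat in female libraries, and 0.140, 0.121 and 0.101 times in male libraries. Urokinase was thus the more abundant activator message in each female library and tissue-type activator in each male library. The summed TPM of both activators was 212.6 ± 4.24 in female and 157.1 ± 9.58 in male cells (SD, n = 3 each), a smaller difference than that of either gene. No p is given for such sums and ratios.

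Plaur, the urokinase receptor gene (chromosome 7, 24462484 to 24475968, plus strand, 7 exons), did not follow its ligand. It was at 51.4, 60.0 and 60.1 CPM in female libraries and 57.5, 52.3 and 58.0 CPM in male libraries, ranges that overlap. The log2 fold change was 0.03 (95% interval -0.17 to 0.23, edgeR adjusted p = 0.798), which does not show that the levels are equal. With a correction for gene length and GC content it was called higher in female cells, at log2 0.35 (edgeR adjusted p = 0.00378). Plau had 2.30, 2.08 and 2.13 times the TPM of its receptor in female libraries and 0.289, 0.268 and 0.221 times in male libraries.

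Serpine2 (chromosome 1, 79794197 to 79861180, minus strand, 9 exons in the longest coding transcript) encodes protease nexin, a cell-bound serpin that inhibits thrombin, urokinase and tissue-type activator. It had 394.2, 463.6 and 418.3 CPM in female libraries and 1212.8, 1223.7 and 1063.3 CPM in male libraries. The groups did not overlap, and the level was 2.74-fold lower in female cells (log2 -1.46 ± 0.09, edgeR adjusted p = 2.21e-10), the largest decrease among the 9 genes. Per length, Plat and Plau together had 1.40, 1.24 and 1.37 times the TPM of Serpine2 in female libraries, and 0.354, 0.337 and 0.417 times in male libraries. Activator messages exceeded the Serpine2 message in every female library and were outnumbered in every male library. RNA levels say nothing of protease activity, which was not measured.

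Among the 9 genes, thrombomodulin carried the largest difference in CPM. Thbd (ENSMUSG00000074743, chromosome 2, 148404466 to 148408188, minus strand) is a gene of 1 exon. It stood at 1382.1, 1425.0 and 1363.1 CPM in female libraries and 215.3, 203.6 and 236.9 CPM in male libraries. All female libraries exceeded all male ones, by 6.36-fold on the fit (log2 2.67 ± 0.08, edgeR adjusted p = 4.30e-14). Its mean TPM was above that of 99.7% of protein-coding genes in female and 96.6% in male cells. This level was reached where Cdh5, Cldn5 and other endothelial markers were at or near 0.

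Procr (chromosome 2, 155751117 to 155755471, plus strand, 4 exons) encodes the receptor that presents protein C to the thrombin and thrombomodulin complex. Procr was at 85.2, 70.6 and 93.0 CPM in female libraries and 47.4, 49.1 and 48.2 CPM in male libraries. The female libraries were more scattered than the male ones but stayed above them, 1.72-fold higher (log2 0.78 ± 0.10, edgeR adjusted p = 3.32e-06). Thbd and Procr were thus both higher in female cells, by unequal amounts: Thbd had 9.28 ± 1.55 times the TPM of Procr in female and 2.47 ± 0.210 times in male cells (SD, n = 3 each). Proc, which encodes protein C itself, had 0 counts in all 6 libraries.

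Tissue factor RNA was not called different. F3 (chromosome 3, 121723537 to 121735048, plus strand, 6 exons) had 17.3, 16.3 and 24.3 CPM in female libraries and 18.9, 19.8 and 21.1 CPM in male libraries. The ranges overlap, and female library 3 was the highest of the 6. The log2 fold change was -0.05, with a 95% interval of -0.36 to 0.27 (edgeR adjusted p = 0.81).

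Tfpi (chromosome 2, 84432855 to 84476775, minus strand, 8 coding transcripts) encodes the Kunitz-type inhibitor of factor Xa and of the tissue factor complex with factor VIIa. It was at 123.8, 124.6 and 131.4 CPM in female libraries and 178.2, 188.0 and 178.4 CPM in male libraries. Groups were tight and apart, with female cells 1.43-fold lower (log2 -0.52 ± 0.08, edgeR adjusted p = 1.45e-05). A change of this size or more was seen in 50.7% of tested genes. Counts per gene do not say which of its transcripts changed.

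Tfpi2 (chromosome 6, 3962595 to 3988919, minus strand) encodes a related Kunitz-type inhibitor that acts on plasmin and other proteases more than on coagulation factors. It was nearly silent, with 19, 35 and 25 counts in female libraries and 11, 5 and 16 counts in male libraries. Female libraries were above male ones (1.33 ± 0.441 against 0.477 ± 0.207 CPM, SD, n = 3 each; log2 1.44 ± 0.52, edgeR adjusted p = 0.0245). The call rests on few reads, and edgeR no longer made it without female library 2 (log2 1.17, adjusted p = 0.124), female library 3 (1.48, 0.0562), male library 1 (1.5, 0.0624) or male library 2 (1.14, 0.0932). Tfpi and Tfpi2 moved apart, but at 72.0 against 2.36 TPM in female and 100.9 against 0.835 TPM in male cells Tfpi was by far the more abundant in both.

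**Figure D2:**
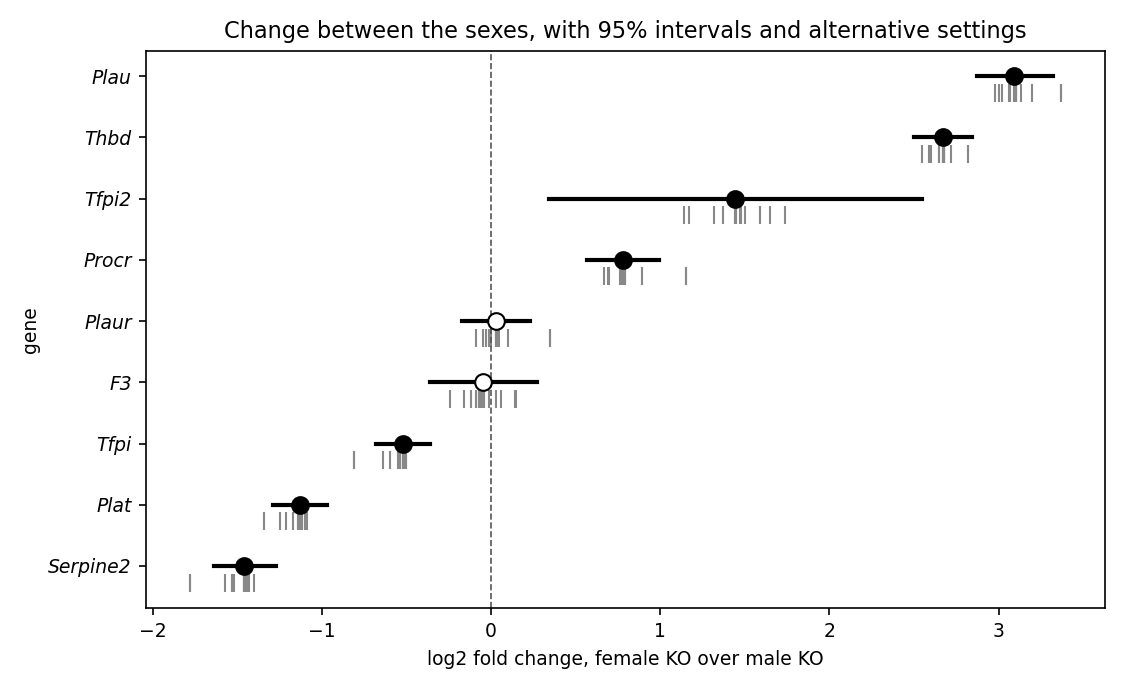
Log2 fold change of female KO over male KO cells for each gene, with its 95% interval (black line) and the estimates under 15 alternative settings (grey ticks below). Filled circles passed the adjusted p threshold and open circles did not. Plau and Thbd lie farthest to the right, Serpine2 and Plat farthest to the left, and the interval of Tfpi2 is the widest.

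Per length, the order of the 9 genes differed between the sexes. In female cells Thbd led at 1160.7 ± 46.7 TPM, followed by Serpine2 (159.6 ± 14.3) and Plau (146.9 ± 4.38), whose libraries overlapped, then Procr at 126.8 ± 15.4. Tfpi, Plaur and Plat came next between 65.7 and 72.0 TPM, with neighbours overlapping, then F3 at 23.7 ± 4.82 TPM and Tfpi2. In male cells Serpine2 led at 427.0 ± 23.6 TPM, followed by Thbd (178.5 ± 18.2), Plat (140.3 ± 10.2), Tfpi (100.9 ± 1.92) and Procr (72.1 ± 1.68). Plaur was at 65.0 ± 5.01 TPM, F3 at 24.0 ± 1.85 TPM and Plau, next to last in this order, at 16.8 ± 2.11 TPM (SD, n = 3 for each). No neighbours in the male order overlapped.

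Thbd made up 64.3%, 64.2% and 62.2% of the summed TPM of the 9 genes in female libraries, and 16.9%, 16.1% and 19.1% in male libraries. The share of Serpine2 was 8.24%, 9.39% and 8.57% in female libraries and 42.8%, 43.6% and 38.6% in male libraries. The leading message was thus an anticoagulant receptor in every female library and a protease inhibitor in every male library.

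**Figure D3:**
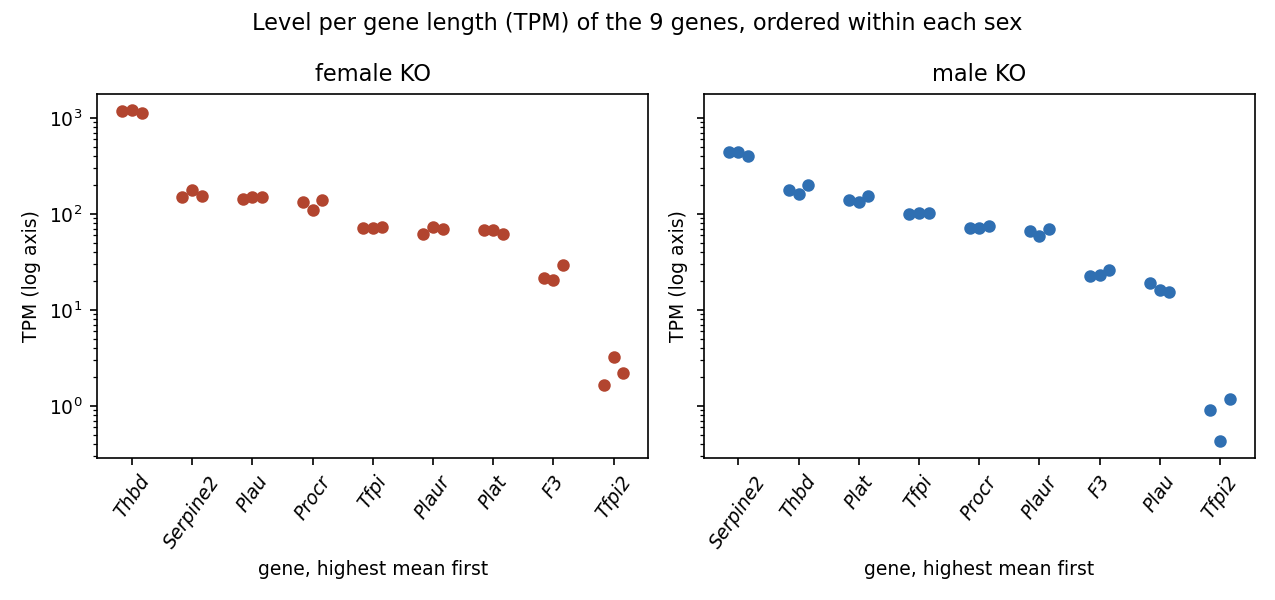
TPM (log axis) of the 9 genes in each library, ordered by mean within female KO cells (left, red) and male KO cells (right, blue). Thbd leads the female order and Serpine2 the male order, and Plau stands near the top of one and near the bottom of the other.

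Thbd and Tfpi exceeded F3 per length in every library, and Tfpi2 lay below it. Thbd had 54.3, 59.2 and 38.0 times the TPM of F3 in female libraries, and 7.74, 6.99 and 7.61 times in male libraries. Tfpi had 3.31, 3.53 and 2.50 times the TPM of F3 in female libraries and 4.37, 4.40 and 3.90 times in male libraries. Relative to F3, the thrombomodulin message was higher and the Tfpi message lower in female cells, without overlap in either ratio.

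**Figure D4:**
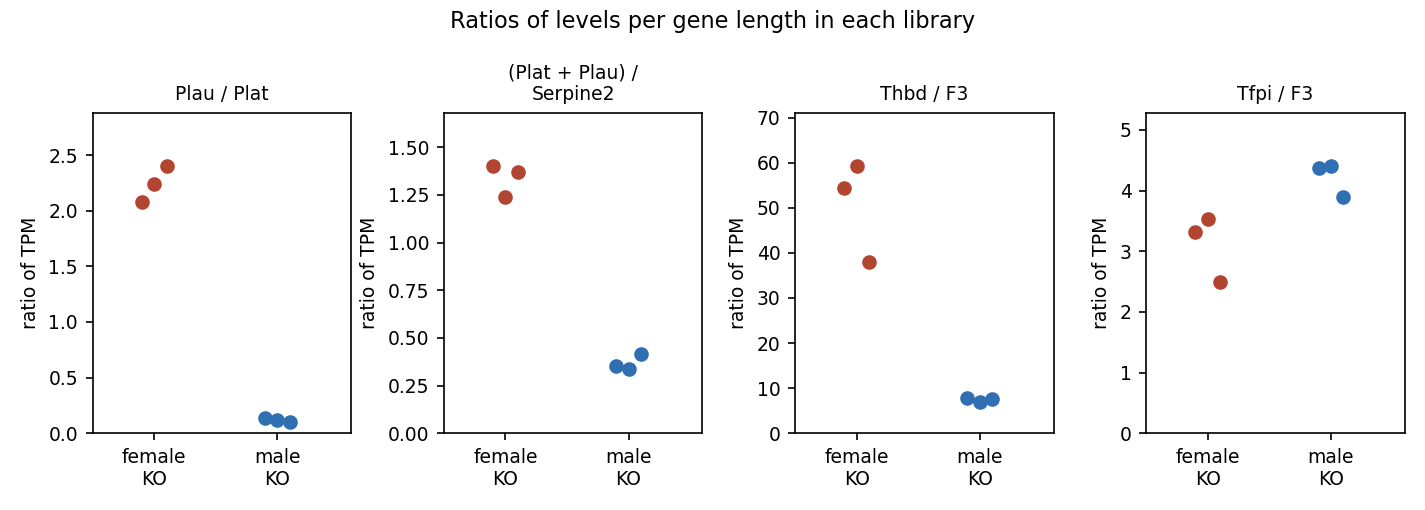
Ratios of TPM in each library (linear axes from 0), female KO on the left and male KO on the right of each panel. The first 3 ratios are higher in every female library and the ratio of Tfpi to F3 is lower in every one.

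Gene length went with the difference between female and male libraries across the table. The 10812 tested genes averaging at least 5 CPM were cut into 5 equal classes by length, numbered from the shortest. Their median log2 fold change was -0.40 in class 1 and 0.39 in class 5. The 6 called changes of members at this level ran against that trend: Plau and Procr, which were higher in female cells, were in class 1 and Thbd in class 2, while Serpine2, which was lower, was in class 5 and Plat and Tfpi in class 4. Tfpi2 was below this level. After correction for length and GC content the log2 fold changes were 3.37 for Plau, 2.82 for Thbd, 1.15 for Procr, -1.78 for Serpine2, -1.34 for Plat and -0.81 for Tfpi, each farther from 0.

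Other genes of plasmin formation also differed in both directions. Of 24 genes in that list 17 passed the filter, of which 9 were higher, 7 lower and 1 not called in female cells. The share called was 94.1%, against 60.7% of all tested genes. Cpb1 and Klkb1, both called higher, passed the filter through their female libraries alone, so the share called is not a result about this list. The median log2 fold change of the 17 was 0.20, against -0.01 over all genes. The lower genes included Serpinb2, an inhibitor of urokinase, at 39.1 ± 2.17 CPM in female and 126.9 ± 9.67 CPM in male cells (log2 -1.70 ± 0.09, edgeR adjusted p = 4.52e-11). Anxa2, which encodes a plasminogen and tissue-type activator receptor subunit, was lower by less (log2 -0.42 ± 0.07, and -0.27 with the correction for length and GC content), as was Thbs1 (-0.74 ± 0.09), the thrombospondin gene. Reads of Anxa2 can be shared with its pseudogenes.

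Among the higher genes of the list, Kng1, the kininogen gene of the contact system, was at 98.9 ± 11.5 CPM in female and 1.35 ± 0.634 CPM in male cells (log2 6.23 ± 0.20), although its reads can be shared with a close paralog. Hgf, a growth factor gene whose protein resembles plasminogen in its domains, was at 860.8 ± 100.6 CPM in female and 342.4 ± 59.6 CPM in male cells (log2 1.33 ± 0.11). Serpini1, which encodes neuroserpin, an inhibitor of tissue-type activator, was higher (log2 1.87 ± 0.19), as was Vldlr (0.86 ± 0.12), a receptor gene of the family that clears activator and inhibitor complexes. With the correction for length and GC content the log2 fold changes were 0.93 for Hgf, 1.42 for Serpini1 and 0.42 for Vldlr. Serpins of the activators thus differed in direction, with Serpine2 and Serpinb2 lower and Serpini1 higher in female cells. Plg, which encodes plasminogen, had 0 counts in all 6 libraries.

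Of 29 genes of coagulation factors, cofactors and their inhibitors 14 were under 1 CPM in every library, among them F11, which was still tested. Of the 15 tested 7 were higher, 6 lower and 2 not called in female cells (86.7% called, against 60.7% of all tested genes). Fga, Fgb and F11, all called higher, passed the low-count filter through their female libraries alone. The share called is thus not a result about this list. The median log2 fold change of the 15 was 0.11. F5, which encodes the cofactor of factor Xa that activated protein C cleaves, was at 165.6 ± 47.1 CPM in female and 3.59 ± 0.489 CPM in male cells (log2 5.53 ± 0.19, edgeR adjusted p = 1.61e-13). Pros1, the gene of protein S, the cofactor of activated protein C, was at 376.7 ± 17.3 CPM in female and 186.4 ± 9.41 CPM in male cells (log2 1.01 ± 0.08). Anxa5, whose product covers anionic phospholipid, was higher (log2 0.85 ± 0.08), as was Lman1 (0.53 ± 0.07), the cargo receptor gene for factors V and VIII. Mcfd2, the gene of the partner subunit of Lman1, was lower (log2 -1.03 ± 0.07). With the correction for length and GC content the log2 fold changes were 1.26 for Anxa5, 0.26 for Lman1 and -0.77 for Mcfd2.

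Gas6, the protein S relative that activates TAM receptors, was at 58.6 ± 4.48 CPM in female and 306.2 ± 7.71 CPM in male cells (log2 -2.38 ± 0.08, edgeR adjusted p = 2.23e-13), the opposite direction to Pros1. The log2 fold change of Gas6 was -2.03 with the correction for length and GC content. Tgm2, a tissue transglutaminase gene, was at 17.1 ± 0.839 CPM in female and 106.5 ± 13.1 CPM in male cells (log2 -2.64 ± 0.11). Ggcx, the vitamin K-dependent carboxylase gene, was slightly lower (log2 -0.38 ± 0.09), a call not made with the correction for length and GC content (log2 -0.17, edgeR adjusted p = 0.061).

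Of 18 genes of thrombin receptors and antithrombotic functions of endothelium 14 were tested, with 3 higher, 8 lower and 3 not called in female cells (78.6% called, against 60.7% of all tested genes, of which 29.8% were lower). The median log2 fold change of the 14 was -1.03. Hs3st1, Cd59a and F2rl3, all called lower, passed the low-count filter through their male libraries. The share called and its direction are thus not a result about this list. Ptgis, the prostacyclin synthase gene, was at 100.3 ± 9.07 CPM in female and 497.0 ± 18.8 CPM in male cells (log2 -2.31 ± 0.09, edgeR adjusted p = 4.23e-13). The cyclooxygenase genes that act before it went the other way, with Ptgs2 at 809.0 ± 88.5 CPM in female and 176.9 ± 29.7 CPM in male cells (log2 2.19 ± 0.11) and Ptgs1 also higher (1.24 ± 0.08). Hs3st1, whose enzyme makes the antithrombin-binding site of heparan sulfate, had 2, 3 and 0 counts in female libraries and 281, 253 and 351 counts in male libraries. Ptger4, which encodes a receptor for prostaglandin E, had 4.23 ± 0.532 CPM in female and 34.4 ± 1.71 CPM in male cells (log2 -3.02 ± 0.14).

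Klf2, a transcription factor known in endothelium to raise Thbd, was lower in female cells, at 5.23 ± 1.32 CPM in female and 30.2 ± 3.39 CPM in male cells (log2 -2.53 ± 0.17, edgeR adjusted p = 1.49e-09). Thbd RNA was higher and Klf2 RNA lower in female cells, and a link between the 2 genes was not tested.

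**Figure D5:**
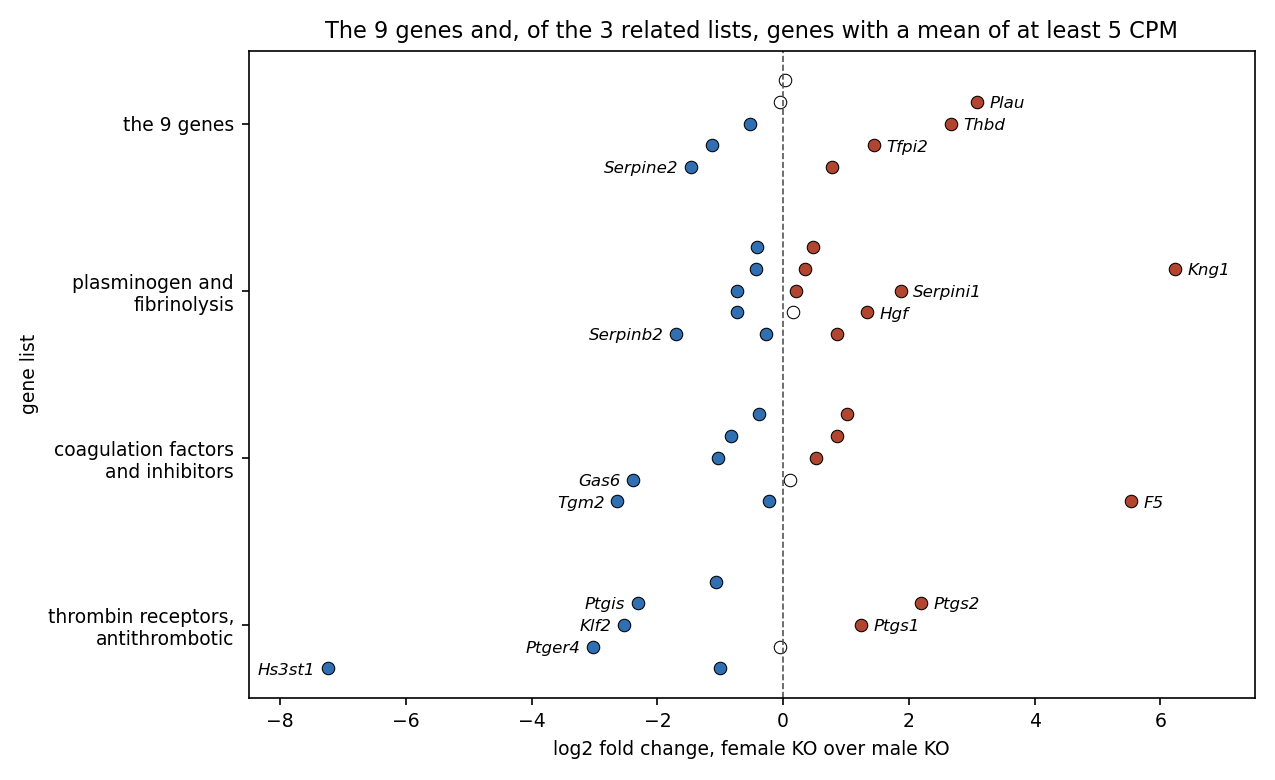
Log2 fold change of female KO over male KO cells for the 9 genes and for tested genes that averaged at least 5 CPM in 3 related lists. Red was called higher and blue lower in female cells, open circles were not called, and the vertical offset within a row carries no value. Each row holds genes on both sides of 0, and the female value of Hs3st1 rests on 5 counts in all.

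The genes whose profile over the 6 libraries was most like that of each member were found by the root mean square difference of log2 CPM, each gene centred on its own mean, among 10407 protein-coding genes averaging at least 5 CPM. Nearest to Plau were Prkg2 (0.099) and Mmp10 (0.116). Mmp10, a stromelysin gene, was at 245.2 ± 9.85 CPM in female and 33.2 ± 4.21 CPM in male cells. Thbd was nearest to Fam110c (0.036) and Ccbe1 (0.074), Serpine2 to Anxa3 (0.062) and Jam2 (0.078), and Plat to Thumpd2 (0.034) and Jak2 (0.043). Procr was nearest to Slc16a3 (0.042) and Cebpd (0.060), and Tfpi to Lonp2 (0.022) and Ddx39b (0.027). Plaur was nearest to Rad17 (0.023) and Elac1 (0.028), and F3 to Rnf135 (0.048) and Def6 (0.069). Among the members themselves the nearest neighbour of Plau was Thbd (0.245) and that of Plat was Serpine2 (0.210). Closer genes outside the group say little about likeness among the members, since far more genes were compared there. With 6 libraries in 2 groups such distances mostly describe the size of the difference between female and male libraries.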

How the data were processed

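Bulk RNA-seq of poly(A)-selected RNA was analysed in 3 female and 3 male Oct4 KO libraries. The authors deposited raw read counts per gene, made with HISAT2 2.0.5 on mm10 and featureCounts 1.5, per the submitters' processing notes. Strand and multi-mapping settings are not given in the sources used here. No annotated gene in the table overlaps any of the 9. The table held 0 other sample columns and 0 rows without a name. The labels do not state that the 3 libraries per sex are independent cultures or animals, so the p-values reflect library-to-library spread that may be technical. A chi-square test on counts of same-sex pairs gave 7.4 to 16 per degree of freedom, more than sampling noise, so none was counted as a duplicate.

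The comparison of female over male was fitted on all genes with edgeR 4.0.16 in R 4.3.3 (filterByExpr, TMM factors 0.948 to 1.06, glmQLFit, glmQLFTest, sex as the only term, two-sided, Benjamini-Hochberg adjustment). SE is the size of the log2 fold change over the square root of F, and 95% intervals use the same SE. TPM was computed from the counts and the gene length in the table. At 0 counts, 3 counts is the limit, 0.123 to 0.154 CPM, for counting error only. The fit was tested on simulated data. Alternatives used DESeq2 1.42.0, limma 3.58.1, other scalings, no filter, a replicate block, a spline correction for length and GC content, and leaving out each library.

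The 9 genes, the gene lists and the tests were chosen with earlier results of these data known, so no p is adjusted over them alone. All 9 are named. The values of 1 list gene are not reported or drawn here, though the list counts include it. Of each list the text names up to 4 called genes per direction with the smallest adjusted p and a mean of at least 5 CPM. Genes of the lists named for 0 counts or low counts, and the upstream windows of Procr, Plaur and F3, were chosen after values were seen. Megakaryocyte, mesothelial and hepatocyte marker lists had 7 of 8, 6 of 8 and 5 of 8 genes under 1 CPM in every library.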

Additional observations from a re-analysis of the deposited data

How the results depend on the processing

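Under 15 alternatives Plau, Thbd and Procr stayed called as higher and Plat, Serpine2 and Tfpi as lower in female cells. Of the 9 genes 6 to 8 were called, and of all genes 8236 to 9320, against 8993. The call of Plaur was gained with the length and GC correction (log2 0.35) and with it and the replicate block together (0.35, adjusted p = 0.00947), and the cause was not tested. Tfpi2 lost its call with the replicate block (log2 1.45, edgeR adjusted p = 0.0571), and leaving out 1 library gave 1.14 to 1.74 (edgeR adjusted p 0.0292 to 0.124). No sign of pairing by replicate number was seen: deviations of same-numbered libraries correlated at -0.016, -0.104 and -0.153, and no library was closest to its own number. With so few libraries this cannot exclude a shared preparation. The block gave 8525 calls and changed no other call among the 9. Total counts without TMM moved the median of all genes to -0.13, from -0.01, and turned no call among the 9. F3 ranged from -0.24 to 0.15 and was never called. Tfpi2 had 5 to 35 counts per library.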

Other observations

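Several genes of plasma proteins made by the liver were read at low levels in female cells. Fga and Fgb, which encode fibrinogen chains, had 41, 30 and 28 and 27, 15 and 22 counts in female libraries, against 0, 2 and 2 and 0, 3 and 0 counts in male libraries. Klkb1, the plasma prekallikrein gene, had 34, 37 and 46 counts in female libraries and 7, 5 and 7 in male libraries, and F11, the factor XI gene, 16, 14 and 18 counts in female libraries and 0, 4 and 2 in male libraries. Other such genes did not follow. Fgg, another fibrinogen chain gene, had 0, 0 and 2 counts in female libraries and 0 in each male library. F9, F10, Plg and Proc had 0 counts in all 6 libraries. Serpinf2 had 0, 0 and 2 counts in female and 3, 3 and 14 in male libraries. Serpinc1 had 1, 0 and 11 counts in female and 5, 14 and 9 in male libraries. Of the hepatocyte markers Ttr and Serpina1a had 0 counts in all 6 libraries and Alb had 4, 0 and 0 counts in female and 0 in each male library. Apoh had 4, 1 and 5 counts in female and 8, 12 and 7 in male libraries. Ahsg was called lower in female cells, at 0.35 ± 0.202 CPM in female and 115.2 ± 9.07 CPM in male cells (SD, n = 3 each). Hp, the haptoglobin gene, was read in cells of both sexes and called lower in female cells, at 35.8 ± 7.94 CPM in female and 53.4 ± 5.18 CPM in male cells. Of the 8 hepatocyte markers 1 was thus called higher (Fgb), 2 lower (Ahsg and Hp) and 5 were not tested. These genes were chosen after their values were seen, and the part of stray reads or of other cells in them was not tested.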
